A study of Mus musculus with 4 samples.

Results

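The 9 genes Pi16, Col14a1, Mfap5, Mfap4, Clec3b, Dpt, Fbln1, Thy1 and Fap, used as markers of dermal fibroblasts, were followed in sorted Lewis lung carcinoma (LLC) cells. They are 9 of 35905 genes with a transcript in the files, and were listed for their levels in WT replicate 2 and PAD4-DN replicate 1 of these same libraries. Their levels by library are therefore a description and carry no test. LLC is a mouse lung cancer line. Here it carried the red fluorescent protein TdTomato and was grown under the skin of the flank of C57BL/6 hosts for 4 weeks. The digested tumours were sorted for cells with TdTomato and without the leukocyte antigen CD45, and poly-A RNA was sequenced. All hosts were Padi4 fl/fl, with both alleles of the gene for peptidylarginine deiminase 4 floxed. WT hosts were Mrp8Cre-, and PAD4-DN hosts were Mrp8Cre+, with Cre driven by a promoter active in neutrophils, so that the host's neutrophils and not the implanted cancer cells are the target of the deletion. RNA of the sorted cells cannot check that deletion. Each genotype had 2 libraries. The labels used here do not give the hosts' sex or age, or say whether replicates came from separate tumours, so a p-value here reflects no more than how these libraries scatter, which may be technical.

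Fibroblasts build the extracellular matrix of the dermis. They secrete collagens, the small glycoproteins that space collagen fibrils, and the fibrillin microfibrils on which elastic fibres form. A fibroblast state that surrounds vessels and lies in fascia, marked by Pi16 and Dpp4, is found in many organs, and tumours implanted under the skin are invaded and surrounded by such host cells. None of the 9 genes is restricted to fibroblasts. Thy1 also marks T cells and neurons, and mesenchymal cancer cells can transcribe matrix genes themselves.

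The libraries held 20036322 to 25327974 estimated counts. Levels are given as CPM, counts per 1000000 of the TMM-scaled library total, or, to compare genes with each other, as TPM, which also divides by effective length. Leukocyte, endothelial and red cell transcripts were present at low levels and were highest in PAD4-DN replicate 1, as detailed after the markers. Of the markers of an epithelial cancer line, the keratins Krt8 and Krt18 were at 162 to 217 and 158 to 210 CPM, while the epithelial adhesion genes Epcam and Cdh1 did not exceed 0.168 and 0.342 CPM.

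The RefSeq promoter table held 3 of the 9 genes, Pi16, Fbln1 and Dpt. All 3 are shown, and no choice among them was made by expression level. Each stretch is printed from GRCm38.p6 and ends at the base before the first annotated gene start, with 250 bases for Dpt and Fbln1 and 164 bases for Pi16. Capitals mark matches to the E-box, CANNTG, a letter pattern bound by many helix-loop-helix factors.
Pi16 (chr17:29318632-29318795, plus strand): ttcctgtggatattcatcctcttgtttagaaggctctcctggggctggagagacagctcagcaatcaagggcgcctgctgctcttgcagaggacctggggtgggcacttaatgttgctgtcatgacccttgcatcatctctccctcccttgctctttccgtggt
Fbln1 (chr15:85205699-85205948, plus strand): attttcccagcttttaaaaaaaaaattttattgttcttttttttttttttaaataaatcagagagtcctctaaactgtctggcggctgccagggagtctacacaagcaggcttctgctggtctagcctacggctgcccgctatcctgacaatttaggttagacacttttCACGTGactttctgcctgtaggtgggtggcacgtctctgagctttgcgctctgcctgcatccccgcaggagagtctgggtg
Dpt (chr1:164796413-164796662, plus strand): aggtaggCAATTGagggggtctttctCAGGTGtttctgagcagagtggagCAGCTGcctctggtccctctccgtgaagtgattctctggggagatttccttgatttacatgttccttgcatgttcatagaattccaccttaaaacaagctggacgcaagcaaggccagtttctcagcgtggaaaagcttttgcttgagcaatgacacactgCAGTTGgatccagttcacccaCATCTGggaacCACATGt
The Dpt stretch held 6 E-box matches, the Fbln1 stretch 1 and the Pi16 stretch 0. Of all promoters held there, 66.2% had a match in the same 250 bases and 52.3% in the 164 bases of the Pi16 window. None of the 3 stretches held TATAAA (the TATA box), CCAAT (the CCAAT box), GGGCGG (the GC box), TGANTCA (the AP-1 pattern) or GGAATG (the TEAD pattern) on either strand. In the 250-base window these, in that order, were present in 12.4%, 33.8%, 32.7%, 6.75% and 12.6% of all promoters. These letters describe the sequence alone and say nothing of which factors were bound.

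Counted singly, 7 of the 9 markers were at least 2-fold higher in WT replicate 2 than in WT replicate 1 (5.12% of genes tested), and 6 were in PAD4-DN replicate 1 over PAD4-DN replicate 2 (7.35%). In CPM, 6 of the 9 markers were at least 2-fold higher in WT replicate 2 than in WT replicate 1 and also at least 2-fold higher in PAD4-DN replicate 1 than in PAD4-DN replicate 2. These were Pi16, Col14a1, Mfap5, Clec3b, Fbln1 and Thy1. The background is that 2.79% of the 13718 genes tested met both conditions, and since the markers were chosen on this pattern nothing is read from the comparison. Mfap4 was 2.23-fold higher in WT replicate 2 than in WT replicate 1, but its difference within PAD4-DN did not exceed counting error. Dpt was abundant everywhere, and Fap was lowest in WT replicate 2. No marker was at least 2-fold lower in both comparisons, as 0.394% of genes tested were. All 9 passed the low-count filter. Clec3b and Mfap5 passed through WT replicate 2 and PAD4-DN replicate 1 alone. The number of fibroblasts, their RNA per cell and transcription by the cancer cells themselves were not tested and cannot be told apart in bulk libraries.

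**Figure D1:**
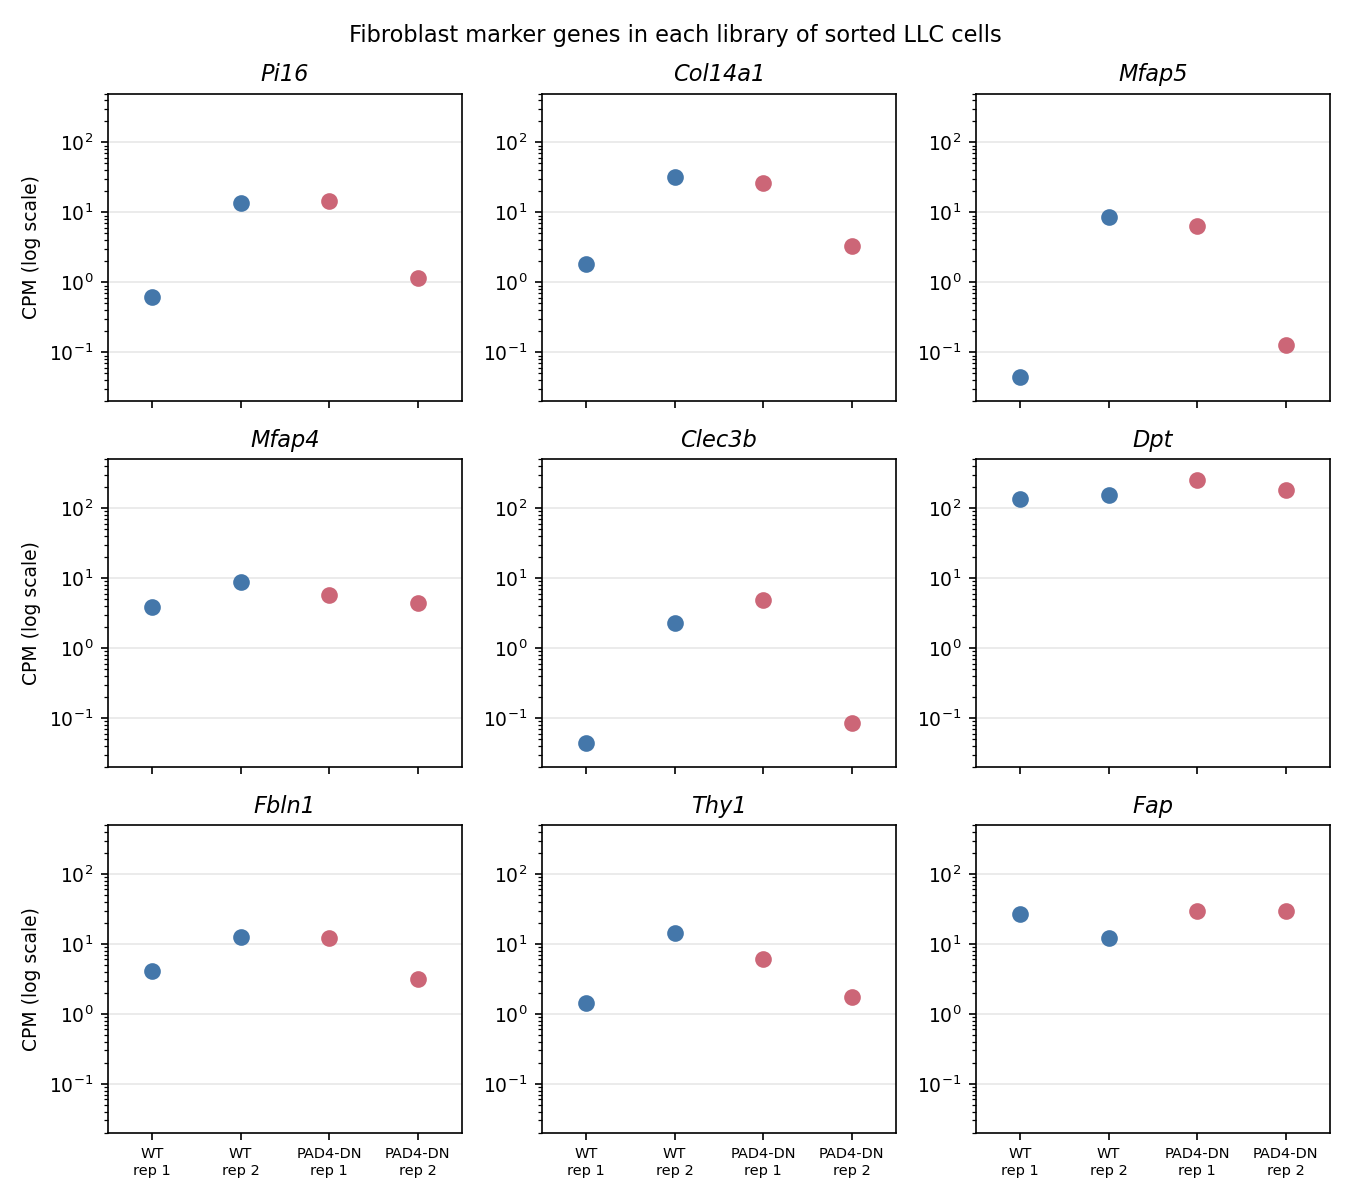
CPM on a log axis for each of the 9 markers, 1 point per library, WT in blue and PAD4-DN in red. The points of Mfap5 and Clec3b lie far apart within each genotype, while those of Dpt stay between 135 and 255 CPM and the lowest Fap point is WT replicate 2 at 12.1 CPM.

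Pi16 encodes a secreted or membrane-anchored peptidase inhibitor of the CAP family and is the marker that names the perivascular fibroblast state. It was at 0.615 and 13.4 CPM from WT hosts, replicate 1 before replicate 2 as in every such pair of values here, and at 14.4 and 1.17 CPM from PAD4-DN hosts. The high library of each genotype lay above both low ones, and the ranges of the genotypes overlapped. WT replicate 2 was 21.8-fold above WT replicate 1 (95% Clopper-Pearson interval 12.8 to 40.4, covering counting error only, as do all such intervals here). PAD4-DN replicate 1 was 12.3-fold above PAD4-DN replicate 2 (interval 8.34 to 18.8). WT replicate 2 and PAD4-DN replicate 1 themselves had a ratio of 0.931 (interval 0.794 to 1.09, which includes equality).

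Col14a1 encodes the chain of collagen XIV, which binds to the surface of collagen fibrils and is typical of dense dermis and tendon. Its CPM were 1.8 and 31.6 from WT hosts and 26.4 and 3.31 from PAD4-DN hosts. The ratio within WT was 17.6 (interval 12.8 to 24.7) and the ratio of PAD4-DN replicate 1 to replicate 2 was 7.99 (interval 6.3 to 10.2). The low libraries still held 41 and 79 counts, so Col14a1 was measured above the limit of a count of 0 in every library.

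The microfibril genes did not act as 1 group. Mfap5, a small glycoprotein that binds fibrillin microfibrils, was at 0.044 and 8.73 CPM from WT hosts and 6.39 and 0.126 CPM from PAD4-DN hosts. Those values rest on 1, 220, 131 and 3 counts. The ratio within WT was 198, with an interval of 35.3 to 7870, and that within PAD4-DN was 50.8, with an interval of 17 to 250. By TPM these ratios were 431 and 124. Mfap4, a fibrinogen-like protein of elastic fibres, was at 3.91 and 8.73 CPM from WT hosts and 5.66 and 4.44 CPM from PAD4-DN hosts. WT replicate 2 was its only clearly higher library, at 2.23 times WT replicate 1 (interval 1.74 to 2.89). The ratio of PAD4-DN replicate 1 to replicate 2 was 1.27, and its interval of 0.97 to 1.67 includes equality.

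Fbln1 encodes fibulin-1, a calcium-binding glycoprotein of basement membranes and elastic fibres. It was at 4.13 and 12.5 CPM from WT hosts and 12.2 and 3.14 CPM from PAD4-DN hosts. The ratios were 3.03 within WT (interval 2.4 to 3.86) and 3.9 within PAD4-DN (interval 3 to 5.11). Compared with Pi16 and Mfap5, Fbln1 was high in the same libraries over a smaller range, and its low libraries held 94 and 75 counts.

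Clec3b encodes tetranectin, a secreted C-type lectin that binds plasminogen. It was at 0.044 and 2.3 CPM from WT hosts and 4.83 and 0.0838 CPM from PAD4-DN hosts, from 1, 58, 99 and 2 counts. The ratio was 52.3 within WT (interval 9.03 to 2100) and 57.6 within PAD4-DN (interval 15.5 to 482). Of all 9 markers Clec3b had the lowest TPM in WT replicate 2, at 4.16, while in PAD4-DN replicate 1, at 9.01, Dpt, Fap and Mfap5 lay above it.

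Dpt encodes dermatopontin, a small matrix protein that binds decorin and speeds collagen fibril formation. It was at 135 and 154 CPM from WT hosts and 255 and 180 CPM from PAD4-DN hosts, from 3068 to 5218 counts. WT replicate 2 was 1.14-fold above WT replicate 1 (interval 1.09 to 1.2) and PAD4-DN replicate 1 was 1.41-fold above PAD4-DN replicate 2 (interval 1.36 to 1.47). These small ratios exceed counting error and point the same way as those of Pi16. In log2 they were 0.19 within WT and 0.5 within PAD4-DN. Both lay inside the 5th to 95th percentiles of all genes tested, -0.8 to 0.94 within WT and -0.71 to 1.28 within PAD4-DN. Dpt was the most abundant marker in every library by TPM, at 118 and 141 from WT hosts and 241 and 170 from PAD4-DN hosts. It ranked between 428 and 965 by TPM among the 35905 genes.

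The surface markers went different ways. Thy1, the membrane-anchored glycoprotein CD90, was at 1.41 and 14.2 CPM from WT hosts and 6 and 1.76 CPM from PAD4-DN hosts. Its ratios were 10.1 within WT (interval 7.04 to 15) and 3.41 within PAD4-DN (interval 2.38 to 4.96). Fap encodes fibroblast activation protein, a membrane serine protease that marks fibroblasts of tumours and wounds. It was at 26.5 and 12.1 CPM from WT hosts and 29.2 and 29.1 CPM from PAD4-DN hosts. Fap was the only marker higher in WT replicate 1 than in replicate 2, by 2.19-fold (interval 1.91 to 2.53), a direction and size met by 4.15% of genes tested. In PAD4-DN its libraries gave a ratio of 1 (interval 0.898 to 1.12).

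**Figure D2:**
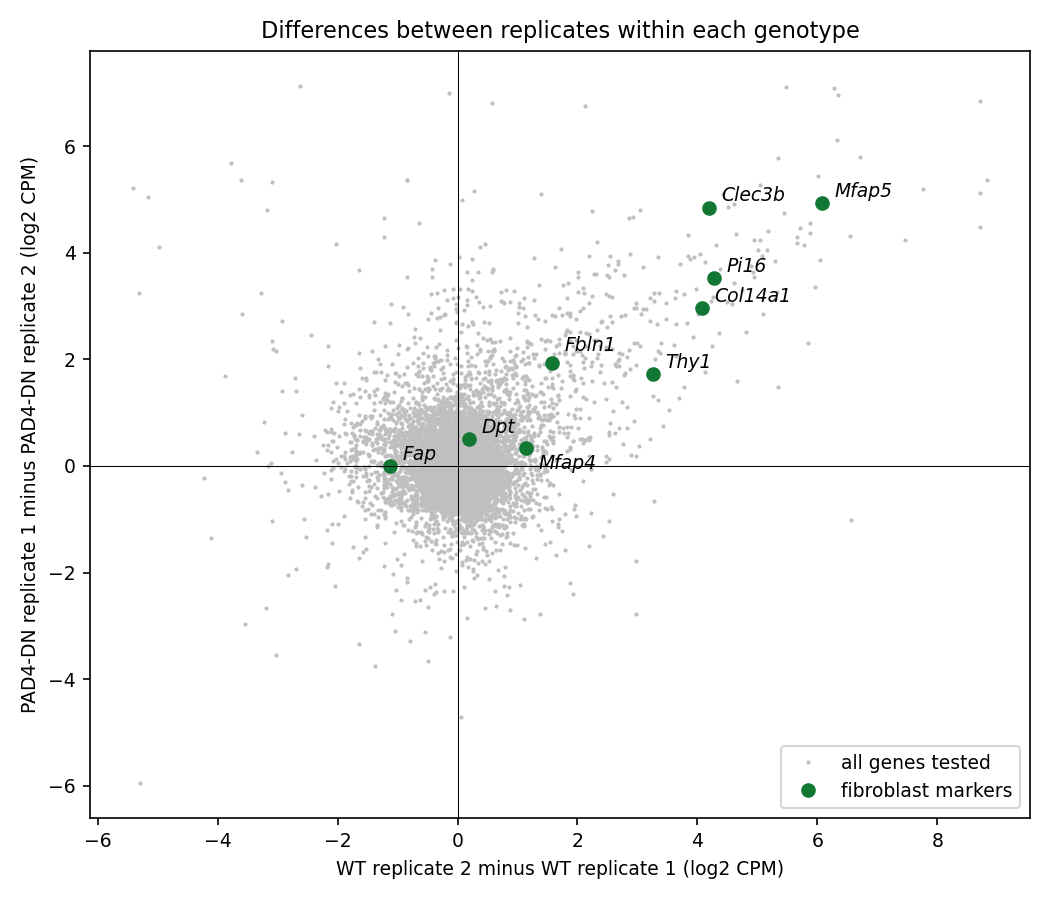
Difference in log2 CPM between WT replicate 2 and WT replicate 1 (x axis) and between PAD4-DN replicate 1 and PAD4-DN replicate 2 (y axis), grey for all 13718 genes tested and green for the 9 markers. Mfap5, Clec3b, Pi16 and Col14a1 lie far out at the upper right, Dpt lies inside the cloud, and Fap lies to the left at -1.13 on the x axis.

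Differences in log2 CPM add a prior count of 2, which shrinks those of genes near 0. The median difference between WT replicate 2 and WT replicate 1 over the 9 markers was 3.26 on the log2 CPM scale, against 0.02 over all genes tested. Between PAD4-DN replicate 1 and PAD4-DN replicate 2 it was 1.93, against 0.01. With Dpt and Fap left out, the other 7 markers summed to 12 and 91.6 CPM from WT hosts and to 76 and 14 CPM from PAD4-DN hosts. With all 9 the sums were 173 and 257 CPM from WT hosts and 360 and 224 CPM from PAD4-DN hosts, in which Dpt is the largest part.

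By TPM the order of the markers differed between libraries. In WT replicate 1 and PAD4-DN replicate 2 the order was led by Dpt, Fap and Mfap4, and closed by Col14a1, Pi16, Clec3b and Mfap5. Mfap5, last in both, stood behind Dpt and Thy1 in WT replicate 2 at 11 TPM and behind Dpt and Fap in PAD4-DN replicate 1 at 12.1 TPM. In WT replicate 2 Thy1 was at 14.4 TPM, and Fap, at 6.74 TPM, lay below Mfap4 and Col14a1. In PAD4-DN replicate 1 Fap was next after Dpt at 19.9 TPM and the other 7 markers below it lay between 5.55 and 12.1 TPM. Neighbours within that range had no replicate of their own and cannot be ranked beyond these libraries.

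The markers did not keep 1 ratio between WT replicate 2 and PAD4-DN replicate 1. In CPM, Thy1 was 2.37-fold higher in WT replicate 2 (interval 1.93 to 2.94) and Mfap4 1.54-fold higher (interval 1.23 to 1.95). Clec3b was 2.1-fold higher in PAD4-DN replicate 1 (interval 1.5 to 2.96), Dpt 1.66-fold (interval 1.59 to 1.73) and Fap 2.42-fold (interval 2.11 to 2.79). For Pi16 and Fbln1 the intervals included equality. These libraries also differ in genotype, which cannot be told apart from the library with 1 of each.

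Transcript models divided the Thy1 signal into a part that varied between libraries and a part that varied little. Thy1-201, a protein-coding model, had 5.7 and 331.5 estimated counts from WT hosts and 93 and 4 from PAD4-DN hosts. Thy1-202, a retained-intron model of the same gene, had 26 and 23.5 counts from WT hosts and 30.5 and 38 from PAD4-DN hosts. Of all Thy1 counts, protein-coding models held 18.2% in WT replicate 1 and 9.5% in PAD4-DN replicate 2, against 93.5% in WT replicate 2 and 75.3% in PAD4-DN replicate 1. The gene total therefore gives smaller ratios between replicates than the coding model alone.

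The protein-coding share of Mfap5 differed too, at 0% in WT replicate 1 and 33.3% in PAD4-DN replicate 2 against 96.1% in WT replicate 2 and 100% in PAD4-DN replicate 1, but the low shares rest on 1 and 3 counts. Both Fbln1 models with counts were higher in WT replicate 2 and PAD4-DN replicate 1, with Fbln1-201 at 64.6, 187.3, 137.3 and 31.4 counts and Fbln1-202 at 29.4, 128.7, 113.7 and 43.6, WT before PAD4-DN and replicate 1 before 2. Mfap5-207 held 73.2% of all Mfap5 counts. Pi16 had a retained-intron model, Pi16-203, that held 32.3% of its counts, and this model was at 5.8 and 99.8 counts from WT hosts and 106.4 and 6.4 from PAD4-DN hosts. Fap-202 held 86.1% of Fap counts and, at 251.3, was lowest in WT replicate 2. Clec3b and Dpt each had 1 model.

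**Figure D3:**
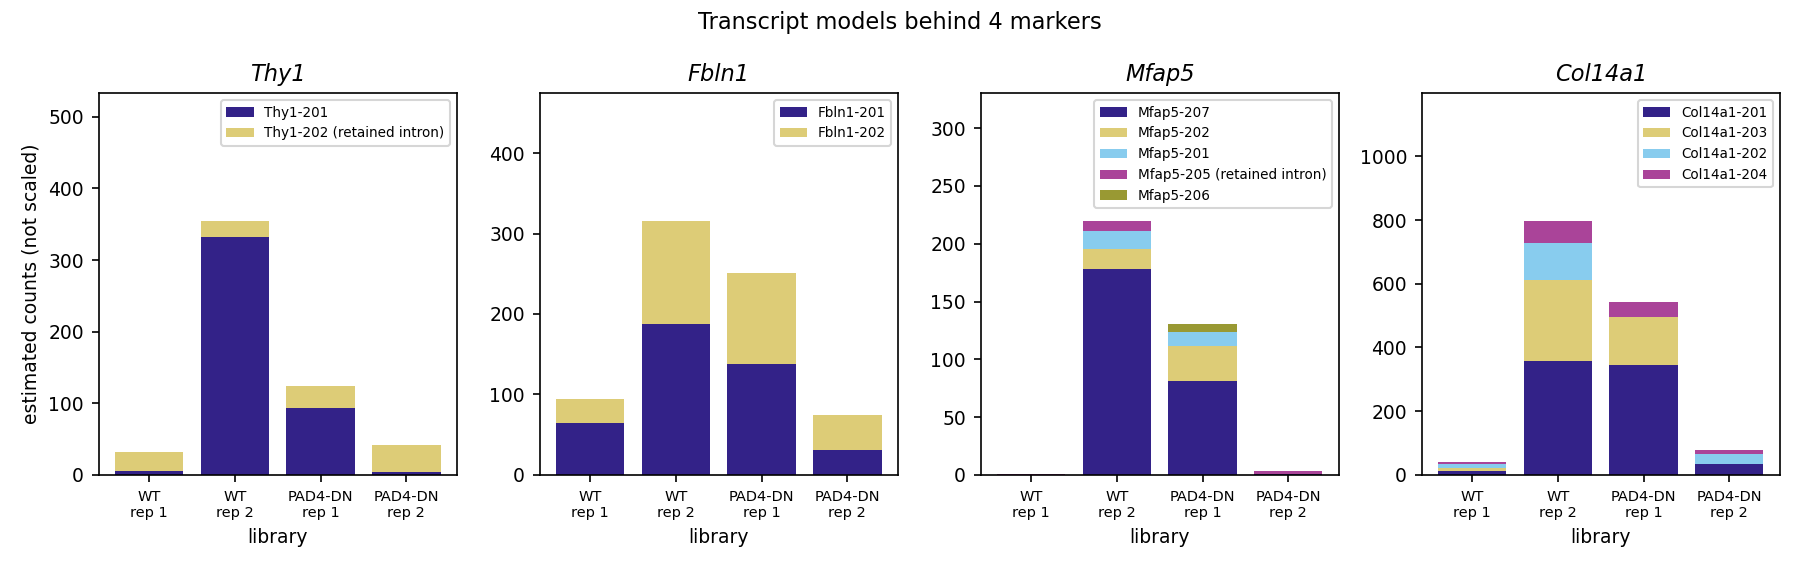
Stacked estimated counts per library, not scaled for depth, for the transcript models that held at least 1% of the counts of Thy1, Fbln1, Mfap5 and Col14a1. The Thy1-202 segment stays between 23.5 and 38 counts in all 4 libraries while Thy1-201 reaches 331.5 in WT replicate 2.

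The comparison of genotypes asked whether sorted cancer cells differ between hosts with and without Cre in neutrophils. None of the 9 markers passed, and 0% of the 13718 genes tested were called by edgeR's quasi-likelihood test at an adjusted p of 0.05. An unadjusted p under 0.05 was found by edgeR for 364 genes (2.65%), Dpt among them, limma-voom called 0 genes and DESeq2 called 11, no marker among them. Leaving out WT replicate 2 gave 2 called genes and leaving out PAD4-DN replicate 1 gave 1, again without a marker. The log2 fold changes of the markers (PAD4-DN minus WT) had a median of -0.12, against 0.01 over all genes tested, with 4 positive and 5 negative. Their standard errors had a median of 1.08, against 0.2 over all genes tested. The markers were listed for their levels in WT replicate 2 and PAD4-DN replicate 1, which lie in different genotypes. Wide scatter within each genotype is thus partly built in, and nothing is read from that comparison.

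Dpt was at 144 ± 13.3 CPM over the WT libraries and 217 ± 52.5 CPM over the PAD4-DN ones (mean ± SD, n = 2 each). Its log2 fold change was 0.59 (SE 0.2, unadjusted p = 0.0277, adjusted p = 0.988 by edgeR), and it was 0.31 without PAD4-DN replicate 1. Fap was at 19.3 ± 10.2 CPM over the WT libraries and 29.2 ± 0.0663 CPM over the PAD4-DN ones. Its log2 fold change was 0.6 (SE 0.36, adjusted p = 0.988 by edgeR), which moved to 0.14 when WT replicate 2 was left out and to 1.27 when WT replicate 1 was. For Dpt and Fap both PAD4-DN libraries lay above both WT libraries, as they did for 15.4% of genes tested, and for no marker did they lie below both, against 17.4%.

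For the other 7 markers the genotypes overlapped. Pi16 was at 7.03 ± 9.07 CPM over the WT libraries and 7.81 ± 9.38 CPM over the PAD4-DN ones, a log2 fold change of 0.14 (SE 1.49). Col14a1 was at 16.7 ± 21.1 and 14.9 ± 16.4 CPM (-0.18, SE 1.35), and Fbln1 at 8.33 ± 5.94 and 7.7 ± 6.44 CPM (-0.12, SE 0.77). The log2 fold change of Mfap5 was -0.44 (SE 1.96), that of Mfap4 -0.32 (SE 0.44), that of Clec3b 1.05 (SE 1.81) and that of Thy1 -1.02 (SE 1.08). In all 7 the SE was larger than the difference. That is partly built in, since the markers were listed for their levels in WT replicate 2 and PAD4-DN replicate 1. Adjusted p for these 7 lay between 0.988 and 0.997 by edgeR. With 2 libraries a group the smallest two-sided p of an exact permutation test is 0.333.

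**Figure D4:**
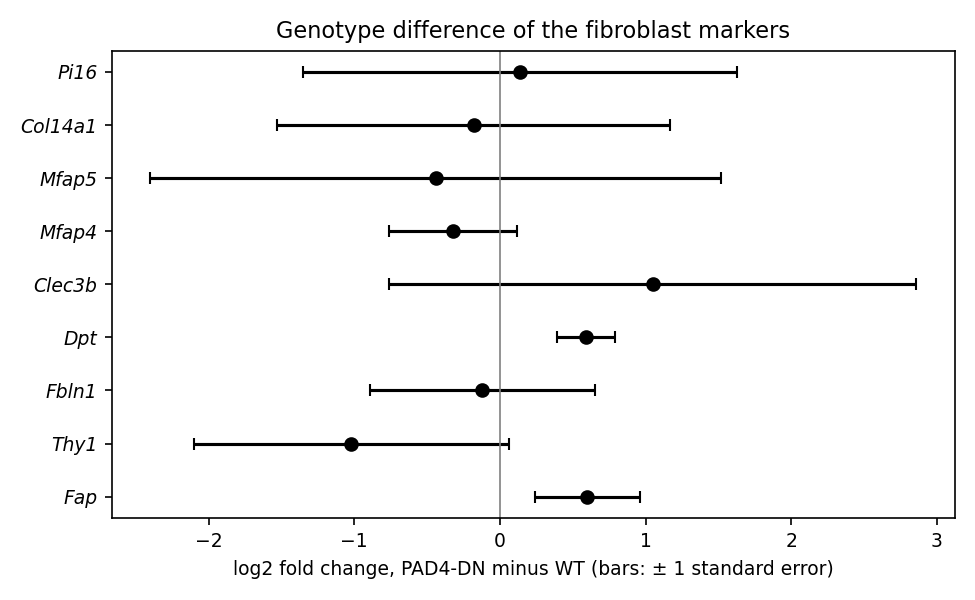
Log2 fold change of each marker, PAD4-DN minus WT, from edgeR, with bars of 1 standard error. The bar of Dpt is the shortest (0.59, SE 0.2), and the bars of the 7 markers other than Dpt and Fap cross 0.

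Related matrix and fibroblast genes were listed by role and read in the same way. Genes named because they met both conditions, and Ccdc80, Col6a1, Col6a2, Fcgr1, Cd53 and the 5 endothelial genes named for a 2-fold difference, were chosen after their values were seen. So were Sema3c and Dpp10, named for an unadjusted p under 0.05. Each gene counted once, 67 related genes were tested. Of these, 19 (28.4%) met both conditions, WT replicate 2 at least 2-fold over replicate 1 and PAD4-DN replicate 1 likewise over replicate 2. The share of all genes tested was 2.79%, which is also the background of the list counts of both conditions that follow. Some of the 19, such as Dpp4 and Mfap2, had 0 counts in WT replicate 1 and PAD4-DN replicate 2. Such genes passed the low-count filter through WT replicate 2 and PAD4-DN replicate 1 alone. The lists were also chosen with earlier results of these data known, so nothing is read from these shares. No related gene passed between the genotypes (0 higher and 0 lower in each list), and 1, Sema3c, had an unadjusted p under 0.05 by edgeR. Of the 19, 15 were under 5 CPM in both WT replicate 1 and PAD4-DN replicate 2. Of the other 48, 43 were at 5 CPM or more in at least 1 of those libraries. Both conditions divide by these libraries, so the split is partly built in and nothing is read from it.

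Among other genes of adventitial and universal fibroblasts, 5 of 18 met both conditions: Dpp4, Ccdc80, Cd55, Islr and Nbl1. Dpp4, a serine peptidase related to Fap and the partner of Pi16 as a marker, had 0 counts in WT replicate 1 and in PAD4-DN replicate 2, against 87 counts in WT replicate 2 and 96 in PAD4-DN replicate 1. A count of 0 allows up to 3 counts per library, or 0.132 CPM for WT replicate 1 and, for PAD4-DN replicate 2, 0.126 CPM. Dpp4 was thus at least 26.2-fold higher in WT replicate 2 than in WT replicate 1, and at least 37.2-fold higher in PAD4-DN replicate 1 than in PAD4-DN replicate 2. Ccdc80 was at 0.0879 and 10.2 CPM from WT hosts and 8.69 and 0.335 CPM from PAD4-DN hosts. By contrast the 3 most abundant genes of the list, Fstl1 (518, 668, 763 and 580 CPM, WT before PAD4-DN and replicate 1 before 2), Serpinf1 (408, 369, 423 and 343) and Gsn (380, 387, 339 and 366), differed by less than 2-fold. Pdgfra, the receptor used most often to identify fibroblasts, was likewise at 247 to 340 CPM in all libraries.

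Collagen genes were divided in more than 1 way. Col3a1, the chain of collagen III, was the most abundant, at 7400 and 8250 CPM from WT hosts and 11600 and 6560 CPM from PAD4-DN hosts. Dcn (decorin) was at 770 to 1040 CPM and Col6a3 at 270 to 679 CPM. Of the 11 genes, 7 were at least 2-fold higher in PAD4-DN replicate 1 than in replicate 2, against 7.35% of all genes tested. In WT replicate 2 over replicate 1 it was 3 of the 11, against 5.12% of all genes tested. Col6a1 was high in PAD4-DN replicate 1 alone, at 272 and 301 CPM from WT hosts and 864 and 199 CPM from PAD4-DN hosts. Col6a2 had the same pattern, at 126 and 181 CPM against 515 and 79.8 CPM. The chains of collagen I and Col5a2 were the 3 of 11 that met both conditions. Col1a2 was at 0.879 and 404 CPM from WT hosts and 467 and 3.94 CPM from PAD4-DN hosts. Col1a1 was at 16 and 531 CPM from WT hosts and 652 and 16.9 CPM from PAD4-DN hosts. WT replicate 1 and PAD4-DN replicate 2 thus held abundant Col3a1 mRNA with little Col1a1 or Col1a2 mRNA.

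Among 12 genes of activated fibroblasts, Postn, Spon1 and Sfrp2 met both conditions. Postn (periostin) was at 0.22 and 129 CPM from WT hosts and 62.8 and 1.72 CPM from PAD4-DN hosts. Tnc, the most abundant of that list, was highest in PAD4-DN replicate 2, at 356 CPM, and lay between 153 and 219 CPM in the others. Tgfbi was at 52.9 and 147 CPM from WT hosts and 132 and 95.7 CPM from PAD4-DN hosts, and Lrrc15 at 47.7 and 85.7 against 66 and 80.5 CPM.

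Within the elastic microfibril and fibulin network, 6 of 20 genes met both conditions: Fbn2, Mfap2, Fbln2, Fbln7, Lox and Loxl1. Lox, the enzyme that crosslinks collagen and elastin, was at 3.17 and 45.9 CPM from WT hosts and 28 and 4.28 CPM from PAD4-DN hosts. Fbln2, a relative of Fbln1, was at 8.7 and 57 CPM from WT hosts and 53.5 and 12.2 CPM from PAD4-DN hosts. Fbn1, the fibrillin that Mfap5 binds, was at 948 to 1210 CPM in all libraries, and Ltbp1 and Ltbp3 were at 439 to 535 and 149 to 231 CPM. Of the collagen XIV relatives and fibril regulators, Col12a1 and Bgn met both conditions, 2 of 8 tested. Col12a1 was at 4.13 and 165 CPM from WT hosts and 97 and 6.71 CPM from PAD4-DN hosts, while Thbs2 stayed at 688 to 956 CPM.

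Of 8 tested peptidases related to Fap, Dpp4 alone met both conditions. Dpp8, a cytosolic member, was at 170 to 186 CPM, Prep at 127 to 159 CPM and Dpp9 at 72.7 to 90.1 CPM. No peptidase passed between genotypes, and Dpp10, at 0.571 and 0.397 CPM from WT hosts and 1.12 and 1.34 CPM from PAD4-DN hosts, had an unadjusted p of 0.0423 by edgeR.

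Markers of other cell types moved partly with the fibroblast markers, and their part in these results was not tested. Macrophage markers summed to 53.5 and 52.6 CPM from WT hosts and 102 and 20.2 CPM from PAD4-DN hosts, and 9 of 11 tested were at least 2-fold higher in PAD4-DN replicate 1 than in replicate 2, against 7.35% of all genes tested. Only 1 of the 11, Fcgr1, was 2-fold higher in WT replicate 2 than in replicate 1, where the share of all genes tested was 5.12%. Pan-leukocyte markers were at 88.2 and 61 CPM from WT hosts and 109 and 79.9 CPM from PAD4-DN hosts, most of it Itgb2. Without Itgb2 the other 7 summed to 17.3 and 18.2 CPM from WT hosts and 37.3 and 6.62 CPM from PAD4-DN hosts. Of the 8, 6 were at least 2-fold higher in PAD4-DN replicate 1 than in replicate 2, and 1, Cd53, in WT replicate 2 than in replicate 1. Ptprc, the gene of the sorted-out antigen CD45, was at 2.2 and 1.71 CPM against 5.42 and 0.713 CPM. Red cell and platelet markers summed to 41.5 and 5 CPM from WT hosts and 137 and 4.53 CPM from PAD4-DN hosts, high in WT replicate 1 where most fibroblast markers were low. Neutrophil markers, at 17.1 and 7.3 CPM from WT hosts and 20.9 and 9.98 CPM from PAD4-DN hosts, were likewise lower in WT replicate 2 than in replicate 1. In PAD4-DN replicate 1 most fibroblast, leukocyte and red cell markers were thus high together. In WT replicate 2, 7 of the 9 fibroblast markers, without Dpt and Fap, were at least 2-fold above replicate 1. The summed red cell and neutrophil markers were lower there than in replicate 1.

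Endothelial markers summed to 45.1 and 38 CPM from WT hosts and 72.5 and 39.6 CPM from PAD4-DN hosts, most of it Pecam1. Of 9 tested, 5 (Cdh5, Kdr, Vwf, Emcn and Tek) were at least 2-fold higher in PAD4-DN replicate 1 than in replicate 2, against 7.35% of all genes tested, and Tek alone met both conditions. Pericyte and smooth muscle markers summed to 3.08 to 3.85 CPM over all libraries, with Cnn1, Actg2 and Higd1b at no more than 3 counts in any. T cell markers, relevant to Thy1, summed to 6.86 and 4.44 CPM from WT hosts and 9.47 and 5.78 CPM from PAD4-DN hosts. Of 3 tested, 2 were at least 2-fold higher in WT replicate 2 than in WT replicate 1, against 5.12% of all genes tested. They were Lck (5 counts in WT replicate 1 and 14 in WT replicate 2) and Cd8a (4 and 15), both near the floor. In PAD4-DN replicate 1 over replicate 2 it was 0 of the 3. Cd3d made up most of the sum and went the other way within WT, with 143 counts in replicate 1 and 72 in replicate 2. Cd3g, Cd2 and Cd5 had at most 3 counts in any library. Keratinocyte markers summed to 1.32 to 1.51 CPM, with Krt5, Krt14, Krt1 and Trp63 at no more than 3 counts. Adipocyte, skeletal muscle and Schwann cell markers summed to 3.38 to 6.54, 3.74 to 5.46 and 32 to 47.5 CPM. Mbp made up most of the last, and Sox10, Cdh19 and Gfra3 had at most 3 counts. No gene of these cell type lists passed between the genotypes. Mbp alone had an unadjusted p under 0.05 by edgeR (log2 fold change -0.5, SE 0.13, unadjusted p = 0.00886, adjusted p = 0.988).

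**Figure D5:**
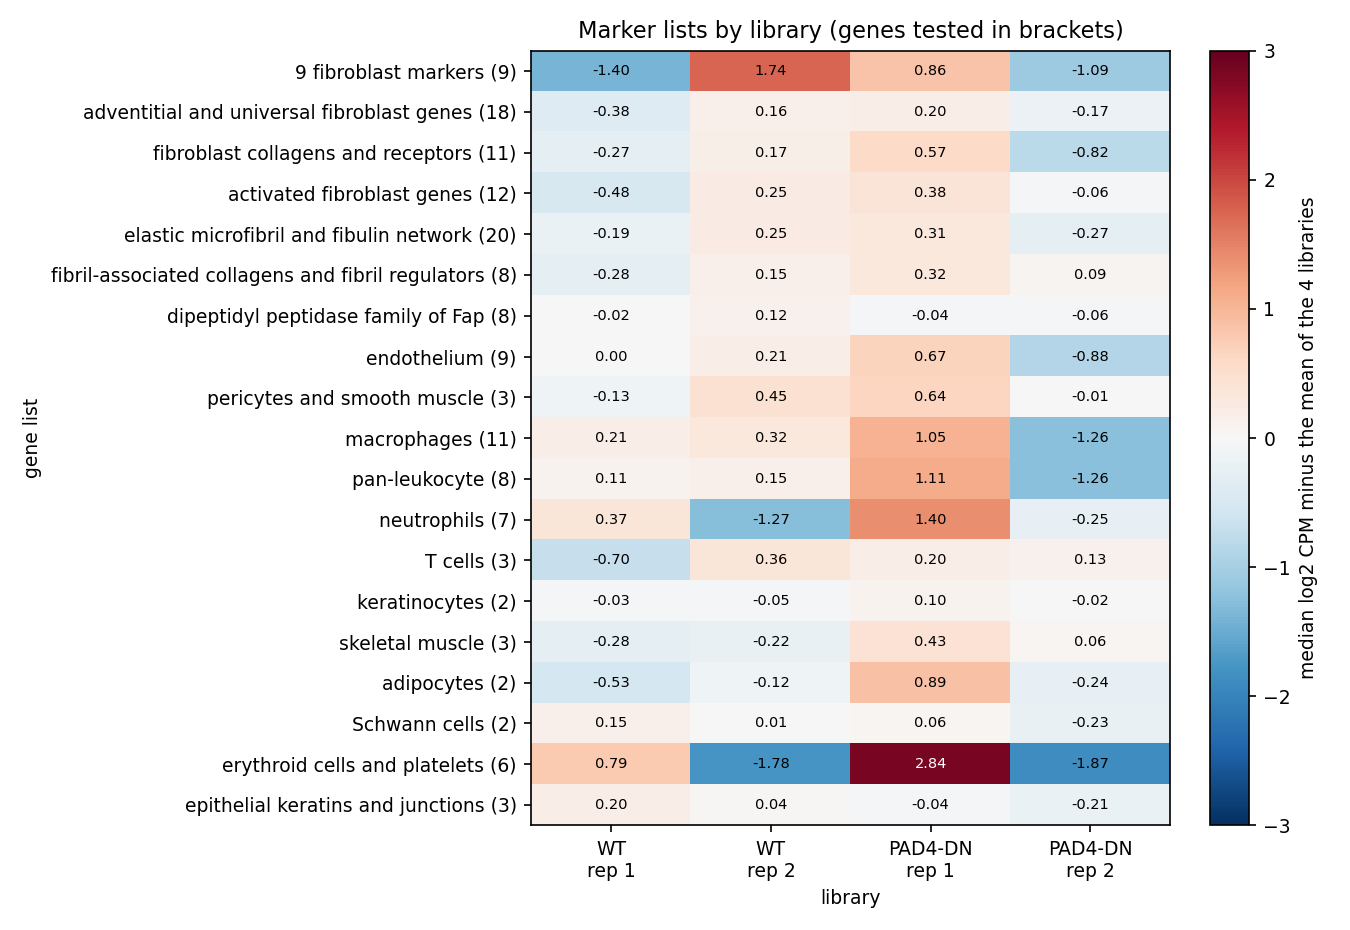
Median over the tested genes of each list of the log2 CPM minus its mean over the 4 libraries, by library, with the number of genes tested in brackets and red for higher. The 9 markers are at -1.4 and 1.74 from WT hosts and 0.86 and -1.09 from PAD4-DN hosts, while erythroid and platelet genes are at 0.79 and -1.78 from WT hosts and 2.84 and -1.87 from PAD4-DN hosts.

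The genes whose profile over the 4 libraries came closest to the median profile of the markers were sought among 9672 other protein-coding genes of at least 5 CPM on average. Likeness was the Euclidean distance between centred log2 CPM values over these 4 libraries, and it is a description of them. The nearest were Ifi205 (distance 0.26), Adamts2 (0.5), Trim30a (0.55), Gvin1 (0.58), Cxcl9 (0.59), Fbln2 (0.59), Ifi44 (0.66), Cfb (0.68), Lox (0.73) and Cxcl10 (0.74). Adamts2, the procollagen N-propeptidase, was at 1.85 and 15.3 CPM from WT hosts and 13.3 and 2.6 CPM from PAD4-DN hosts. Ifi205, an interferon-inducible gene, was at 1.71 and 14.1 CPM from WT hosts and 9.22 and 2.43 CPM from PAD4-DN hosts. The markers themselves lay at 0.26 for Thy1, 1.11 for Fbln1 and 1.13 for Col14a1 up to 2.99 for Mfap5 and 3.46 for Fap. The 10 genes were picked for a small distance, so the 2 sets of distances are not compared.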

How the data were processed

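Poly-A RNA of sorted LLC cells was measured in 4 libraries, made from 100 ng of total RNA with 13 PCR cycles and read for 75 cycles, per the labels' protocols. Each deposited table gives, per the file headers, estimated counts, TPM and lengths of 117486 transcripts. The submitters' processing notes name kallisto and GRCm39. The version and annotation were not given in the sources used here. The deposited estimated counts are expected read numbers, not normalized. The deposited TPM values are scaled by effective length and sum to 1000000.

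Transcripts were matched by identifier without version to GENCODE M21 (116408 matched, and 1078, with 0.483% to 0.493% of counts, did not). Counts and TPM were summed per gene, and counts rounded. PAD4-DN was compared with WT by edgeR 4.0.16 in R 4.3.3 (TMM, filterByExpr, prior count of 2 for log2 CPM, quasi-likelihood test, Benjamini-Hochberg over all 13718 genes). Alternatives used DESeq2 1.42.0, limma 3.58.1 (voom, or trend on log2 of TPM plus 1 or 0.1), other scalings, no filter, blocks and each library left out, and the fits were tested on simulated data. PCR reads are not independent molecules, so intervals and the limit of 3 counts cover counting error only. Transcript models of a gene share reads, so counts of single models are estimates.

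The markers and lists were chosen with earlier results of these data known. Named genes are all markers, the 3 most abundant tested genes of related lists, leading and near-0 genes of cell type lists, and the 10 nearest profiles, and not all are printed. Others are said to be chosen after their values were seen, or, as Pdgfra and Ptprc, were named for their use in identifying or sorting cells.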

Additional observations from a re-analysis of the deposited data

How the results depend on the processing

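No marker passed between genotypes under any alternative run, and the lowest adjusted p of a marker was 0.662. The count of called genes, 0 by edgeR, was 11 with DESeq2 and 10 in edgeR without the low-count filter, and lay between 0 and 2 with each library left out. The median log2 fold change of the markers lay between -2.15 and 1.45 with each library left out (1.45 without WT replicate 2, -2.15 without PAD4-DN replicate 1, against -0.12), and was 0.13 with limma-voom and 0.12 and 0.4 on log2 of TPM plus 1 and plus 0.1. With each library left out, log2 fold changes ran from -2.58 to 3.65 for Pi16, -2.34 to 3.03 for Col14a1, -5.07 to 6.03 for Mfap5, -0.79 to 0.36 for Mfap4, -3.74 to 5.62 for Clec3b, -1.41 to 0.89 for Fbln1 and -2.16 to 1.45 for Thy1, each changing sign. Those of Dpt (0.31 to 0.81) and Fap (0.14 to 1.27) did not. Col14a1 changed sign to 0.13 with limma-voom, 0.1 and 0.29 on the TPM scales, and Mfap5 to 0.09, 0.12 and 0.4. Fits without a library keep 1 library in a group, which is assumed to vary like the others. The cause was not tested. The replicate numbers are not said to pair libraries. With the replicate block 0 genes were called (309 at an unadjusted p under 0.05), the marker median was 0.21 and Col14a1 changed sign to 0.21. Same-numbered libraries deviated in opposite directions (correlation -0.344 over 13718 genes), and the crossed replicate block, added after the data were seen, called 0 genes (412 at an unadjusted p under 0.05), with Col14a1 at 0.2. Of 54 recalculated ratios between replicates (TPM, library totals, DESeq2 size factors), 53 stayed within their counting interval, and the ratio of PAD4-DN replicate 1 to replicate 2 for Fap was 1.23 by TPM. Genes with 1 to 3 counts in a library, Mfap5 and Clec3b, limit these ratios most.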
